A study of Mus musculus with 24 samples.

Results

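Voltage-gated potassium channels and their subunits were described in the mouse hippocampus after deletion of *Tsc1*. Members were the protein-coding genes whose GENCODE symbol places them in the subfamilies Kcna, Kcnab, Kcnb, Kcnc, Kcnd, Kcne, Kcnf, Kcng, Kcnh, Kcnip, Kcnq, Kcns or Kcnv and whose mean level over the 24 mice was at least 0.2 CPM (read counts scaled to a common library size). Of 52 genes with such a symbol, 49 reached this level, and *Kcna10*, *Kcna7* and *Kcne1* did not. The 49 members stand among 15743 protein-coding genes at or above the same level and 55385 gene identifiers in all.

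Hippocampal RNA came from 24 adult mice of both sexes in 6 groups of 4 mice, lettered A to D. All carried *Tsc1* f/f, floxed alleles of the gene for hamartin, which with tuberin holds the mTOR complex 1 pathway in check, and all received tamoxifen. Control mice (Tsc1-Cre-) lacked the Tg(Camk2a-CreERT2) transgene, kept *Tsc1* and were taken on day 8 after the start of tamoxifen. Tsc1-Cre+ mice carried the transgene, in which *Camk2a* sequence drives a tamoxifen-dependent Cre recombinase in excitatory neurons, and were taken on day 4, 6, 8 or 13. The Tsc1-Cre+-Rap 4 mice (rapamycin mice) were also Tsc1-Cre+, received 10 mg/kg of the mTOR inhibitor rapamycin daily from day 4 and were taken on day 13. The deletion is limited to CAMK2A-expressing neurons, so RNA of the whole hippocampus mixes deleted neurons with interneurons and glia, and fewer cells of a type and less RNA per cell cannot be told apart.

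Voltage-gated potassium (Kv) channels are tetramers of pore-forming alpha subunits that open on depolarization and let potassium leave the cell. Kv1 (Kcna) channels sit largely on axons and set the firing threshold, Kv2 (Kcnb) channels carry delayed rectifier current at the soma, Kv3 (Kcnc) channels repolarize fast-spiking cells, and Kv4 (Kcnd) channels carry the dendritic A-type current. Kv7 (Kcnq) channels carry the M-current that limits repetitive firing, and the Kcnh genes encode the EAG, ERG and ELK channels. The Kcnf, Kcng, Kcns and Kcnv subunits are electrically silent alone and modify Kv2 channels, while Kcnab (Kv beta), Kcnip (KChIP) and Kcne (MinK-related) genes encode auxiliary subunits.

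*Tsc1* was at 103 to 109 CPM in the 4 controls, at 75.5 to 81.7 on day 4 and at 57.4 to 68.9 on day 13, below every control in all 20 Tsc1-Cre+ mice. Libraries held 28208561 (a rapamycin mouse) to 126435936 counts (a day 13 mouse). All 5 hippocampal identity markers were detected in every group. Control and day 8 libraries share their number series and all other groups have different ones. What the number stands for is not stated, and number series and time point cannot be told apart in those other groups. Among the members, day 13 mice A and B and day 8 mice A and C often lay furthest from the controls, so results resting on them are also given without them, a choice made after the values were seen.

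Levels between genes were compared as CPM per kilobase of exon in the 4 controls. *Kcnab2*, a Kv beta subunit, was highest at 100 ± 8.82 (SD, n = 4), and *Kcnd2* (Kv4.2) had 44.6 ± 2.5. The KChIP gene *Kcnip2* was at 36.8 ± 2.32, the Kv1 gene *Kcna1* at 33.7 ± 2.21 and *Kcnq3* (Kv7.3) at 32.2 ± 2.04. The SD range of *Kcna1* overlapped those of *Kcnip2* and *Kcnq3*. The lowest member was *Kcnv2* at 0.0799 ± 0.0119. The Kv3 subfamily was led by *Kcnc2* at 19.9, the Kcnh genes by *Kcnh3* at 12.2 and *Kcnh7* at 12.1, and the silent subunits by *Kcnf1* at 10.4, *Kcnv1* at 9.87, *Kcns2* at 9.64 and *Kcng2* at 4.54.

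**Figure D1:**
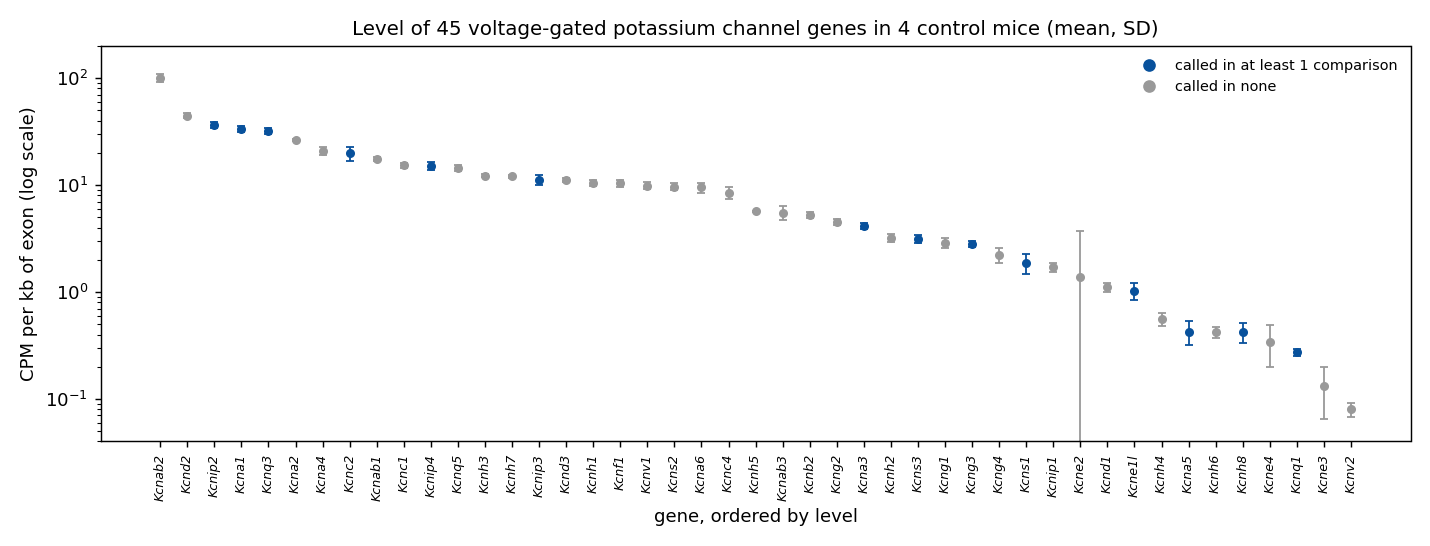
Mean CPM per kilobase of exon (log scale) of 45 members in the 4 control mice, with the SD as bars; blue points were called in at least 1 comparison. *Kcnab2* (100) and *Kcnv2* (0.0799) mark the ends of the range, and the lower bar of *Kcne2*, whose SD of 2.32 exceeds its mean of 1.39, runs to the edge of the axis.

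The Tsc1-Cre+ groups were each set against the controls, and rapamycin mice against day 13 as well, to follow the members through the days before and after seizure onset and under early mTOR inhibition. Calls needed a Benjamini-Hochberg adjusted p under 0.05 in edgeR's quasi-likelihood test together with a log2 fold change beyond 0.5 in either direction. The 5 comparisons with control share the 4 control mice, and the day 13 mice enter 2 comparisons, so their results are not independent. All 49 members passed the filter on low counts in all 6 comparisons. On day 4, 1 member was called, against a background of 0.68% of all genes tested. On day 6 none was, against 1.32%, and DESeq2 on the same mice also called none. At any fold change, 7 members (14.3%) had an adjusted p under 0.05 on day 6, beside 10.1% of all genes tested. On day 8, 3 members were called (6.12% of them, background 3.99%), and on day 13, 9 were called (18.4%, background 16.5%), 3 higher (background 8.4%) and 6 lower (background 8.06%). Rapamycin mice differed from controls in 2 members (4.08%, background 1.41%) and from day 13 mice in 12 (24.5%, background 21.1%), 8 higher (background 9.94%) and 4 lower (background 11.2%). The members' shares on day 13 and in rapamycin against day 13 were near those of all genes. Their median log2 fold change on day 13 was -0.125, beside -0.0397 over all genes tested, and their median absolute change was 0.305, beside 0.315. In all, 15 members were called at least once and 34 never, and the F test across the 6 groups passed 23 of the 49, beside 41.9% of all genes tested. *Kcnd2*, *Kcng1*, *Kcnh1*, *Kcnh4* and *Kcnh6* passed that F test (adjusted p from 0.0211 to 0.0488) while no pairwise comparison reached an adjusted p under 0.05.

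**Figure D2:**
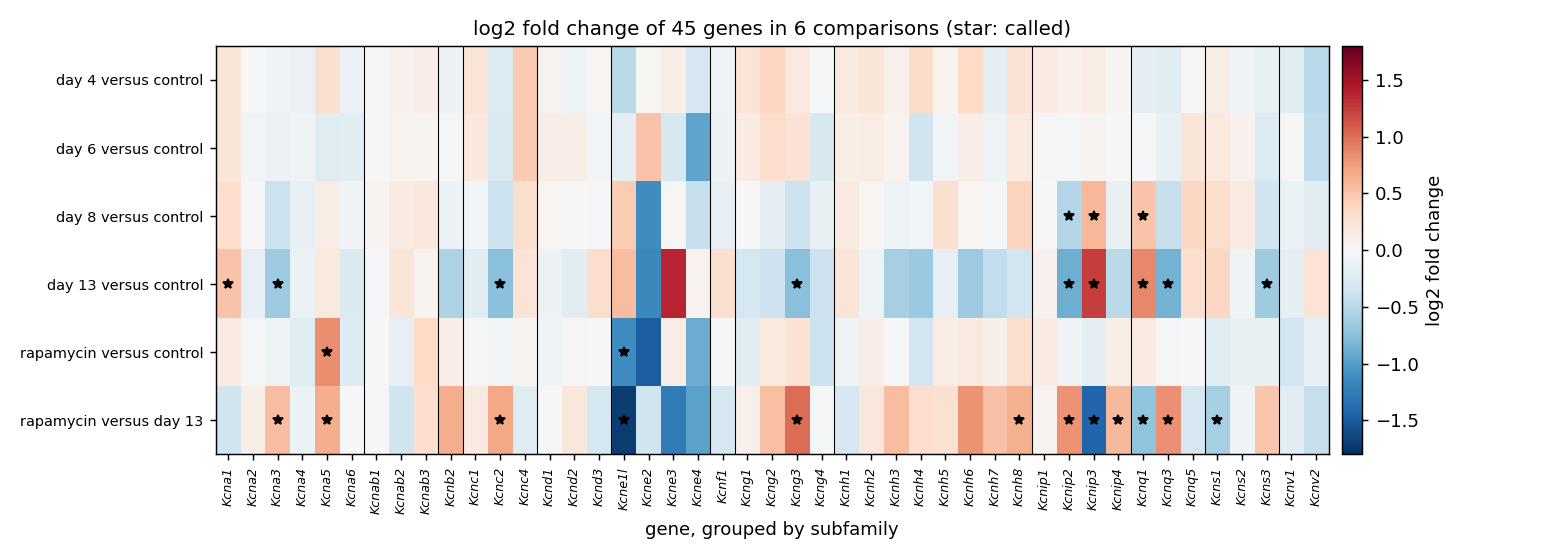
Log2 fold change (colour) of 45 members, in columns by subfamily, in the 6 comparisons, in rows; a star marks a called member. Stars are few on days 4 to 8, number 9 on day 13 and 12 in rapamycin against day 13, with *Kcnip3* the strongest called rise on day 13.

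The KChIPs, calcium-binding subunits that bring Kv4 channels to the surface and slow their inactivation, held the largest changes among well-expressed members, in opposite directions. *Kcnip3*, whose protein (KChIP3, also DREAM or calsenilin) is also a calcium-dependent transcriptional repressor, was at 35.9, 37.0, 45.9 and 40.4 CPM in controls A to D. It was at 41.9, 43.2, 43.3 and 46.7 on day 4, 38.8, 45.1, 40.4 and 40.9 on day 6, 67.4, 50.6, 78.2 and 46.6 on day 8 and 130, 120, 68.5 and 63.8 on day 13. The day 8 and day 13 mice all lay above every control, and the rapamycin mice (34.7, 33.3, 39.1 and 33.8) all lay below every day 13 mouse. *Kcnip3* rose by 0.59 ± 0.15 (log2, SE) on day 8 (adjusted p = 0.0235) and by 1.24 ± 0.22 on day 13 (adjusted p = 0.00419), and was 1.43 lower in rapamycin than on day 13 (log2 fold change -1.43 ± 0.21, adjusted p = 0.0015). Without day 13 mice A and B the rise was 0.73 and stayed called. The day 8 call was lost without day 8 mouse A or C (0.54 and 0.45) or without control A, B or D, with adjusted p from 0.0333 to 0.0735, and was 0.28 without day 8 mice A and C (adjusted p = 0.102).

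*Kcnip2* (KChIP2), the KChIP with the highest level per kilobase, was at 138, 129, 119 and 126 CPM in controls, at 80.8, 105, 63.5 and 108 on day 8 and at 52.2, 42.6, 98.9 and 87.4 on day 13. Neither the day 8 nor the day 13 mice overlapped the controls, and mice A and B were lowest on day 13. It fell by 0.53 ± 0.14 on the log2 scale on day 8 (adjusted p = 0.0323) and by 0.88 ± 0.24 on day 13 (adjusted p = 0.0253). Rapamycin mice had 126, 132, 105 and 126 CPM, mouse C below the controls and the others within their range, and were 0.81 ± 0.24 higher than day 13 mice (adjusted p = 0.0299). The day 13 fall missed the fold threshold without mice A and B, at -0.46 (adjusted p = 0.00264), and was lost without any single control or day 13 mouse A (adjusted p from 0.0533 to 0.065). The day 8 call was lost without any single control or without day 8 mouse A or C, with adjusted p from 0.0233 to 0.0976, and without day 8 mice A and C the log2 fold change was -0.27. It was also lost with all 24 mice in one fit (adjusted p = 0.0646) and with *Ttr*, a choroid plexus marker, as a covariate (adjusted p = 0.0585). In rapamycin against day 13 the call was lost without day 13 mouse A or rapamycin mouse A, B or D (adjusted p from 0.0646 to 0.0742), with *Ttr* as a covariate (adjusted p = 0.0617), and without day 13 mice A and B, where the difference was 0.39.

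*Kcnip4* (KChIP4) was at 33.5, 31.8, 46.9 and 46.1 CPM on day 13, below the 49.3 to 60.8 of the controls, with a log2 fold change of -0.48 ± 0.14 that missed the fold threshold (adjusted p = 0.0343) and crossed it without day 13 mouse C or D (-0.55 and -0.57). It was 0.58 ± 0.14 higher in rapamycin mice (55.7, 56.1, 59 and 64.6) than on day 13 (adjusted p = 0.0127), a call lost without day 13 mouse B (0.48), without day 13 mice A and B (0.34) and after a correction for GC content (0.38). *Kcnip1*, at 8.67 to 13.7 CPM on day 13 against 9.32 to 11.7 in controls, passed no pairwise test.

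**Figure D3:**
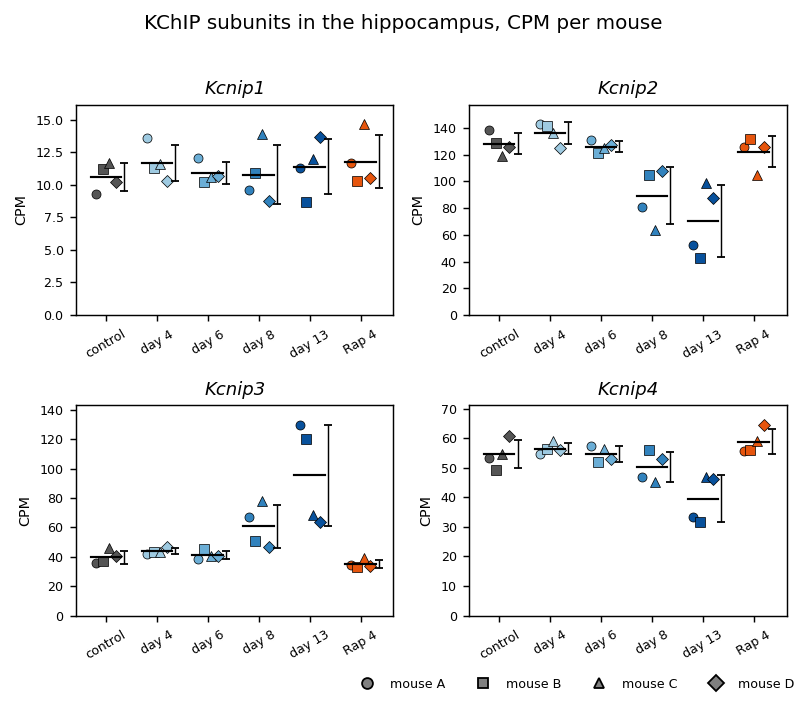
CPM of the 4 KChIP genes in each mouse (markers by letter), with the group mean as a line and its SD as a bar. *Kcnip3* climbs from 35.9 to 45.9 in controls to 63.8 to 130 on day 13 while *Kcnip2* drops from 119 to 138 to 42.6 to 98.9, and the rapamycin mice (Rap 4) lie apart from the day 13 mice for both.

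The sequences just upstream of these genes are shown because *Kcnip2* and *Kcnip3* moved in opposite directions. Each is the 250 bases before the start site in RefSeq (GRCm38.p6, minus strand, 5′ to 3′), at chr19:45816064-45816313 for *Kcnip2* and chr2:127522095-127522344 for *Kcnip3*, and capitals mark a match to the AP-1 motif TGANTCA.
Kcnip2: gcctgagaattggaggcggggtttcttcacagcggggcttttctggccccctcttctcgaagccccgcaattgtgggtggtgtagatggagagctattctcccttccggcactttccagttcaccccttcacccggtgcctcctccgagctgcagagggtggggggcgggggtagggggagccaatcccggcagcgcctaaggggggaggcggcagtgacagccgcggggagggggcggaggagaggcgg
Kcnip3: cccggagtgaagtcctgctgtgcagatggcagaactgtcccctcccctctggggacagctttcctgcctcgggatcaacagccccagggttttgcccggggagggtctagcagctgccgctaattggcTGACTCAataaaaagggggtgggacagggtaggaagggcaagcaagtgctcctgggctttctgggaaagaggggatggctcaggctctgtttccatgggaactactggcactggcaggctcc

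Promoter windows were found for 33 of the 49 members, some with several start sites. Over both strands, TGANTCA stood in the windows of 3 of these genes (*Kcne3*, *Kcnip3* and *Kcnip4*), in 3 of their 49 windows (6.12%), beside 6.75% of 32851 windows in all. CACGTG (E-box) stood in those of *Kcnab1*, *Kcne4* and *Kcnh4*, in 4 of 49 windows (8.16%), beside 6.02%. The CRE letters TGACGTCA, in 1.55% of all windows, and the EGR letters GCGTGGGCG, in 0.536%, stood in none of the members' windows. A match of letters says nothing of binding.

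Among the Kv1 genes, *Kcna1* was higher in every Tsc1-Cre+ time point, and *Kcna3* was lower on day 13. *Kcna1* (Kv1.1), which opposes repetitive firing on axons, was at 146, 161, 167 and 170 CPM in controls and at 180 to 198 on day 4, 180 to 201 on day 6, 182 to 216 on day 8 and 228, 259, 232 and 209 on day 13. All 16 untreated Tsc1-Cre+ mice lay above all 4 controls. Its log2 fold change was 0.22, 0.21 and 0.30 on days 4, 6 and 8 (adjusted p = 0.0257, 0.0145 and 0.0151), under the fold threshold. After a correction for GC content the adjusted p was 0.0568, 0.00911 and 0.00983 on these days. On day 13 it rose by 0.51 ± 0.08 (adjusted p = 0.00199). That value sits at the threshold and fell below it without control A or day 13 mouse B (0.47 and 0.46) and without day 13 mice A and B (0.45), and with no filter on low counts (0.4995). Rapamycin mice, at 169 to 189 CPM, were 0.36 lower than day 13 mice (log2 fold change -0.36, adjusted p = 0.0063), under the fold threshold.

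*Kcna3* (Kv1.3) was at 7.34, 7.96, 8.48 and 7.72 CPM in controls, at 6.18, 6.57, 4.97 and 6.55 on day 8 and at 5.11, 4.38, 6.36 and 4.44 on day 13, so that day 8 and day 13 mice lay below every control. On day 8 its log2 fold change was -0.39 (adjusted p = 0.0399), under the fold threshold, with an adjusted p of 0.0196 after the correction for GC content. *Kcna3* fell by 0.66 ± 0.14 on the log2 scale on day 13 (adjusted p = 0.0103), a call kept in every refit, and was 0.56 ± 0.15 higher with rapamycin (7.15 to 7.94 CPM) than on day 13 (adjusted p = 0.018). The latter was lost without day 13 mouse B or rapamycin mouse B (adjusted p = 0.0425 and 0.0569), and was 0.46 without day 13 mice A and B.

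*Kcna5* (Kv1.5) was higher in rapamycin mice, at 2.01, 2.19, 2.37 and 2.17 CPM, above the highest of the 20 other mice (1.86, on day 4), with 0.807 to 1.51 in controls and 1.08 to 1.74 on day 13. It was 0.84 ± 0.19 higher than in controls (adjusted p = 0.0277) and 0.65 ± 0.18 higher than on day 13 (adjusted p = 0.0204). Leaving out control B or C, or any single rapamycin mouse, gave an adjusted p of 0.0517 to 0.0743 against control, and leaving out day 13 mouse A or rapamycin mouse B or C gave 0.0521 to 0.0571 against day 13, as counts thinned to the smallest library gave 0.0607. *Kcna2*, *Kcna4* and *Kcna6* passed no pairwise test, and neither did *Kcnab1* or *Kcnab3*, while *Kcnab2* was 0.36 lower with rapamycin than on day 13 (log2 fold change -0.36, adjusted p = 0.0335), under the fold threshold. After the correction for GC content the adjusted p of *Kcnab2* there was 0.116.

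**Figure D4:**
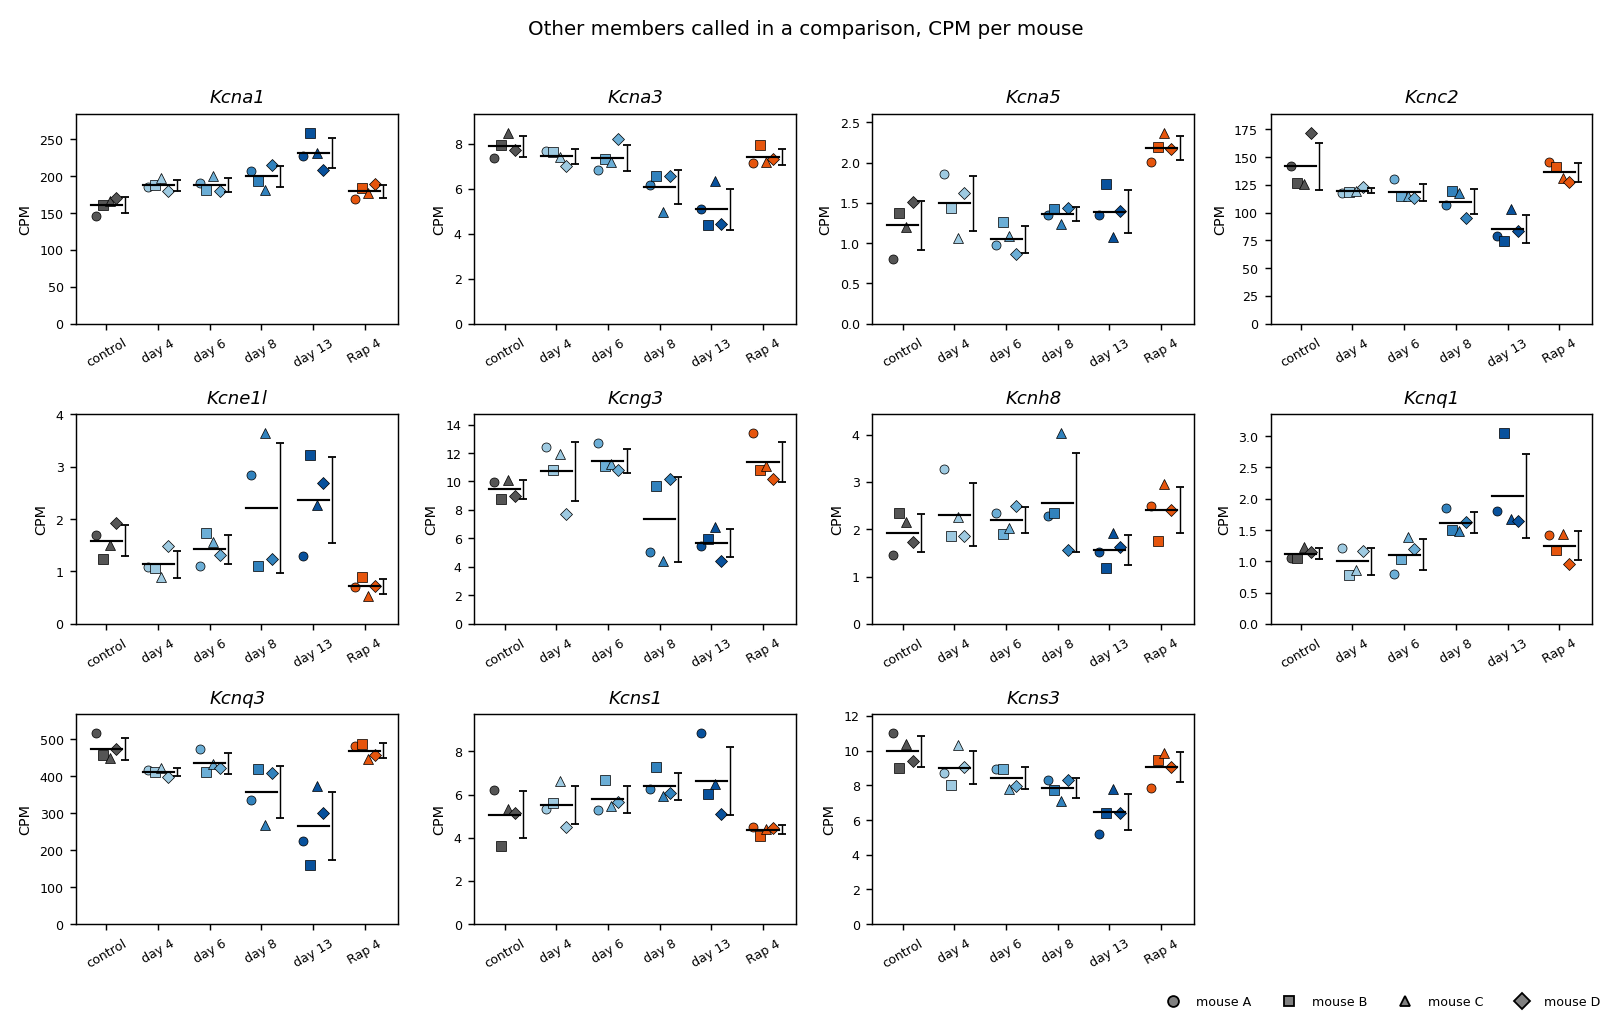
CPM in each mouse (markers by letter) of 11 members outside the KChIPs that were called in at least 1 comparison, with group means as lines and SDs as bars. *Kcnc2*, *Kcnq3* and *Kcns3* are lower on day 13 than in controls, and *Kcna5* and *Kcne1l* set the rapamycin mice (Rap 4) apart.

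Of the Kv3 genes, *Kcnc4* and *Kcnc1* were higher early, under the fold threshold, and *Kcnc2* was lower on day 13. *Kcnc4* (Kv3.4), at 27.9 to 37.1 in controls, was 0.47 and 0.48 higher on days 4 and 6 (adjusted p = 0.00737 and 0.00481), without reaching the call unless control C (0.57 and 0.58) or, on day 6, day 6 mouse A (0.54) was left out. *Kcnc1* (Kv3.1) was 0.23 and 0.19 higher (adjusted p = 0.0102 and 0.0084).

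GC content moved with these early differences. Over protein-coding genes, the log2 fold change on day 4 had a rank correlation of 0.347 with GC content, a description across genes, which are not independent, and of 0.108 on day 6. The correlation was 0.0803 on day 8, 0.0626 on day 13, -0.228 in rapamycin against control and -0.143 in rapamycin against day 13. *Kcnc4* and *Kcnc1* stand at the 94.3 and 87.7 percentile of GC content among protein-coding genes, and *Kcng2*, higher by 0.39 and 0.32 on days 4 and 6 (adjusted p = 0.0163 and 0.0266), at the 97.7 percentile. With a GC correction added after the data were seen, the log2 fold change of *Kcnc4* on day 4 was 0.38 (adjusted p = 0.0211), and *Kcnc1* and *Kcng2* had an adjusted p of 0.087 and 0.0894 on that day. On day 6 the corrected log2 fold change was 0.44 for *Kcnc4* (adjusted p = 0.00254), 0.18 for *Kcnc1* (adjusted p = 0.0166) and 0.25 for *Kcng2* (adjusted p = 0.0824). Members under an adjusted p of 0.05 at any fold change on day 4 went from 6 to 2, beside 4.16% of all genes uncorrected, and on day 6 remained 7 in number, 6 of them shared, beside 10.1%.

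*Kcnc2* (Kv3.2), the Kv3 gene with the highest level per kilobase, was at 142, 127, 126 and 172 CPM in controls, at 118 to 123 on day 4, 113 to 130 on day 6, 107, 120, 118 and 94.9 on day 8 and 79.3, 74.2, 103 and 83.1 on day 13. The day 4, 8 and 13 mice lay below all controls, and the day 6 mice overlapped them (log2 fold change -0.27, adjusted p = 0.0522). The log2 fold change was -0.24 on day 4 (adjusted p = 0.113) and -0.38 on day 8 (adjusted p = 0.035), under the fold threshold. After the GC correction the adjusted p on day 8 was 0.0589. *Kcnc2* fell by 0.76 ± 0.13 on the log2 scale on day 13 (adjusted p = 0.00387) and was 0.69 ± 0.11 higher with rapamycin (128 to 146 CPM) than on day 13 (adjusted p = 0.00188), calls that held in every refit. Its partners in the subfamily passed no pairwise test on day 13, where *Kcnc1* had -0.20 and *Kcnc4* had 0.25.

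*Kcnb2* and the Kv4 alpha subunits passed no pairwise test in any of the 6 comparisons. *Kcnb2* (Kv2.2) was at 61.2, 26.4, 68.2 and 62.9 against 72 to 83.4 (-0.55, adjusted p = 0.126), with mouse B lowest. It became called with all 24 mice in one fit (-0.54, adjusted p = 0.0161), and in rapamycin against day 13 it went from 0.66 (adjusted p = 0.0642) to 0.78 without day 13 mouse C (adjusted p = 0.0423) and to 0.65 by DESeq2 (adjusted p = 0.0294). *Kcnd2* (Kv4.2), the partner of the KChIPs in dendrites, was at 182, 182, 227 and 216 against 214 to 241 (-0.20, adjusted p = 0.133), and *Kcnd3* (Kv4.3) at 135, 198, 116 and 89.6 against 102 to 112 (0.32, adjusted p = 0.236).

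Of the silent subunits, *Kcng3* and *Kcns3* were lower on day 13. *Kcng3* (Kv6.3) was at 9.93, 8.74, 10.1 and 9.01 CPM in controls, at 12.7, 11.1, 11.2 and 10.8 on day 6, at 5.08, 9.66, 4.45 and 10.2 on day 8 and at 5.46, 5.99, 6.79 and 4.44 on day 13. The day 6 mice lay above and the day 13 mice below all controls, and on day 8 only mice A and C were below them. Its log2 fold change was 0.27 on day 6 (adjusted p = 0.0444, under the fold threshold), it fell by 0.76 ± 0.14 on day 13 (adjusted p = 0.00477), and with rapamycin (13.4, 10.8, 11.1 and 10.2 CPM) it was 1.01 ± 0.15 higher than on day 13 (adjusted p = 0.0015). The day 13 and rapamycin calls held in every refit.

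*Kcns3* (Kv9.3) was at 11, 8.99, 10.4 and 9.43 CPM in controls and at 5.21, 6.41, 7.81 and 6.42 on day 13, without overlap. The day 6 and day 8 mice also lay below all controls. The log2 fold change was -0.25 on day 6 (adjusted p = 0.081) and -0.35 on day 8 (adjusted p = 0.035), under the fold threshold. After the GC correction the adjusted p on day 8 was 0.0509. On day 13 *Kcns3* fell by 0.64 ± 0.14 on the log2 scale (adjusted p = 0.00999). Without day 13 mice A and B the change was -0.49, under the fold threshold. In rapamycin against day 13 it was 0.50 higher (adjusted p = 0.0263), just under the fold threshold, which it crossed without day 13 mouse C (0.59) or rapamycin mouse A (0.56). *Kcns1* (Kv9.1) was lower with rapamycin (4.51, 4.08, 4.43 and 4.47) than on day 13 (8.84, 6.04, 6.51 and 5.12), by -0.59 ± 0.17 on the log2 scale (adjusted p = 0.0251). That call was lost without day 13 mouse A or any single rapamycin mouse (adjusted p from 0.0531 to 0.0715) after the GC correction (adjusted p = 0.0759), with *Ttr* as a covariate (adjusted p = 0.0506) and without day 13 mice A and B (adjusted p = 0.0807). *Kcnf1*, *Kcng1*, *Kcng4*, *Kcns2*, *Kcnv1* and *Kcnv2* passed no pairwise test. *Kcnf1* was called without day 13 mouse D, on day 13 (0.53, adjusted p = 0.0408) and with rapamycin against day 13 (-0.55, adjusted p = 0.035). *Kcng4* was called in rapamycin against day 13 without day 13 mice A and B (-0.53, from -0.03), and *Kcng2*, at 0.54 there (adjusted p = 0.103), was called in 4 refits (0.54 to 0.70), the GC correction among them (0.68, adjusted p = 0.04).

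The coding stretch around the selectivity filter is shown for some of the called alpha subunits, *Kcna3*, *Kcna5*, *Kcnc2*, *Kcng3* and *Kcns3*, since conducting and silent subunits share it. Each is 63 bases (GENCODE M21, GRCm38, coding strand, 5′ to 3′) in 1 exon, at chr3:107037587-107037649 (plus strand) for *Kcna3*, chr6:126533721-126533783 (minus) for *Kcna5*, chr10:112456205-112456267 (plus) for *Kcnc2*, chr17:83587890-83587952 (minus) for *Kcng3* and chr12:11091551-11091613 (minus) for *Kcns3*. Capitals mark the 15 bases that encode the filter signature.
Kcna3: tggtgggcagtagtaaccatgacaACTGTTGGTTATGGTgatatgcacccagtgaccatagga
Kcna5: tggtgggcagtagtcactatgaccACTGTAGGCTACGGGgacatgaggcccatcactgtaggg
Kcnc2: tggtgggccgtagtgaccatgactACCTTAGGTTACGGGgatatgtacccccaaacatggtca
Kcng3: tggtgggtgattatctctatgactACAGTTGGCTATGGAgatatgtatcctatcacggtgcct
Kcns3: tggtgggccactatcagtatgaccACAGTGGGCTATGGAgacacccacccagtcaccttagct
Over these 15 bases, the silent subunits *Kcng3* and *Kcns3* were identical at 14. *Kcna3* shared 12 with *Kcng3*, 11 with *Kcna5*, 11 with *Kcns3* and 10 with *Kcnc2*, and *Kcna5* shared 12 with *Kcnc2* and 11 with each silent subunit. *Kcnc2* and each silent subunit shared 9.

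In the Kv7 subfamily, *Kcnq3* was lower and *Kcnq1* higher on day 13. *Kcnq3* (Kv7.3), a subunit of the neuronal M-channel, was at 516, 457, 449 and 474 CPM in controls, at 417, 412, 422 and 398 on day 4, at 411 to 473 on day 6, at 337, 419, 267 and 409 on day 8 and at 226, 161, 374 and 301 on day 13. The day 4, 8 and 13 mice lay below all controls, and the day 6 mice overlapped them (log2 fold change -0.14, adjusted p = 0.138). It fell by 0.85 ± 0.22 on the log2 scale on day 13 (adjusted p = 0.0202) and was 0.82 ± 0.22 higher with rapamycin (447 to 488 CPM) than on day 13 (adjusted p = 0.0172). Its log2 fold change was -0.20 on day 4 and -0.42 on day 8 (adjusted p = 0.0362 and 0.0477), under the fold threshold. After the GC correction the adjusted p was 0.143 on day 4 and 0.0673 on day 8. Without day 13 mice A and B the differences on day 13 and with rapamycin were -0.49 and 0.47, under the fold threshold. The day 13 call was lost without control A or D or day 13 mouse A (adjusted p from 0.0507 to 0.0554).

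*Kcnq1* (Kv7.1), best known from heart and epithelia, was low, at 1.05, 1.05, 1.23 and 1.15 CPM in controls, 1.85, 1.5, 1.48 and 1.63 on day 8 and 1.8, 3.05, 1.68 and 1.65 on day 13. The day 8 and day 13 mice lay above every control, with mouse B far above the others on day 13. It rose by 0.51 ± 0.15 on day 8 (adjusted p = 0.0459) and by 0.86 ± 0.22 on day 13 (adjusted p = 0.0189), and was lower with rapamycin than on day 13 (log2 fold change -0.72 ± 0.24, adjusted p = 0.0478). Leaving out any single one of the 8 mice ended the day 8 call (adjusted p from 0.0535 to 0.134), and leaving out control A, B or D ended that of day 13 (0.0507 to 0.0569). The rapamycin call was lost without day 13 mouse A or B or any single rapamycin mouse (0.0596 to 0.134), and without day 13 mice A and B the log2 fold changes were 0.57 against control and -0.42 with rapamycin (adjusted p = 0.0725 and 0.255). Of the other refits, 8 of 12 ended the day 8 call and 7 of 11 that of rapamycin against day 13. *Kcnq1* shares 121 exon bases with the antisense gene *Kcnq1ot1*, at 606 to 622 CPM in controls and 545 to 659 on day 13, and since the strand setting of the counting is not stated, its reads cannot be told apart from those of its partner there. *Kcnq5* was 0.21 higher on day 6 (adjusted p = 0.0403), under the fold threshold, and was called on day 8 without day 8 mouse C (0.51, adjusted p = 0.0009).

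Of the 8 Kcnh genes, 1 was called, in rapamycin against day 13 (12.5%, beside 21.1% of all genes tested). *Kcnh8* (an ELK channel), at 2.5, 1.76, 2.96 and 2.4 CPM with rapamycin and 1.51, 1.17, 1.93 and 1.62 on day 13, was 0.64 ± 0.22 higher (adjusted p = 0.0493), although the groups overlapped. Leaving out day 13 mouse A, B or D or rapamycin mouse A, C or D ended the call (adjusted p from 0.0622 to 0.131), as did 7 of 11 other refits. Others had their lowest values in day 13 mouse B, without passing the test: *Kcnh3* was at 38.9, 24.2, 70.6 and 53.8 CPM against 68 to 73 in controls (log2 fold change -0.60, adjusted p = 0.121), *Kcnh7* at 109, 75.9, 202 and 163 against 176 to 189 (-0.44, adjusted p = 0.223) and *Kcnh6* at 1.08, 0.563, 0.682 and 1.6 against 1.33 to 1.67 (-0.65, adjusted p = 0.147). Leaving out 1 day 13 mouse made calls on day 13 of *Kcnh3* (without C, -0.84, adjusted p = 0.0241), *Kcnh6* (without D, -0.98, adjusted p = 0.0212) and *Kcnh4* (without A, -0.83, adjusted p = 0.0408, from -0.66 and 0.0634), and in rapamycin against day 13 of *Kcnh3* and *Kcnh7* without C (0.82 and 0.77) and of *Kcnh6* without D (1.13).

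The Kcne genes were all low, and *Kcne1l* was called in the rapamycin comparisons. It was at 0.694, 0.896, 0.541 and 0.731 CPM with rapamycin, below all 20 other mice, the lowest of which had 0.899, and below 1.23 to 1.92 in controls and 1.29 to 3.22 on day 13. The log2 fold change was -1.14 ± 0.21 against control (adjusted p = 0.0103) and -1.71 ± 0.29 against day 13 (adjusted p = 0.00268). Against control it lost the call with all 24 mice in one fit (adjusted p = 0.107) and with counts thinned to the smallest library (adjusted p = 0.0676).

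*Kcne2*, a subunit known from the choroid plexus, varied from 0.0568 to 8.61 CPM over the 24 mice and was high in the mice in which 6 choroid plexus markers were high. Control B had 8.61 CPM and a summed marker level of 1690 CPM, while the 3 other controls had 0.33 to 0.46 CPM and 59.5 to 79.2. It passed no pairwise test, but without control B its log2 fold change on day 6 was 3.09 (adjusted p = 0.0166). *Kcne3* was at 1.14, 0.717, 0.312 and 0.203 CPM on day 13 against 0.0786 to 0.35 in controls (log2 fold change 1.38, adjusted p = 0.0988), and *Kcne4* at 0.549, 0.408, 0.348 and 0.6 on day 6 against 0.409 to 1.32 (-0.95, adjusted p = 0.0845). *Kcne3* was called on day 13 without day 13 mouse D (1.64, adjusted p = 0.0408), *Kcne4* on day 6 without control C (-1.2, adjusted p = 0.0141), and *Kcne1l* on day 13 without day 13 mouse A (0.77, adjusted p = 0.0283).

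**Figure D5:**
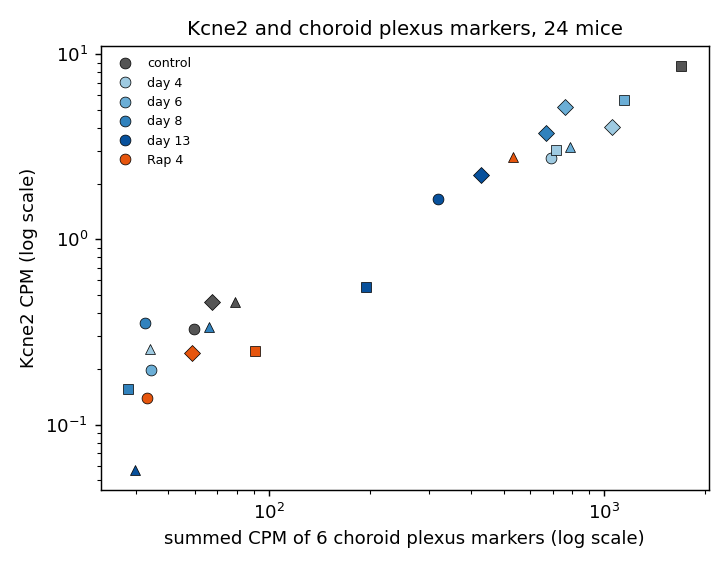
*Kcne2* CPM against the summed CPM of 6 choroid plexus markers in each of the 24 mice, both on log scales, coloured by group with marker shapes for mice A to D. Mice of every group lie along one rising band, with control B at the top right (1690 and 8.61).

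Markers of other cell types are given beside these results. The 5 dentate granule cell markers summed to 258, 239, 323 and 369 CPM in day 13 mice A to D, below the 384 to 427 of the controls, with 2 of 5 called lower and a median log2 fold change of -0.58. The sums of 2 other lists were high in day 13 mice A and B, with medians near 0: the 5 astrocyte markers summed to 1470, 2090, 1150 and 1220 against 1050 to 1090 (1 called higher, 1 lower, median 0.00), and the 8 inhibitory neuron markers to 697, 669, 546 and 469 against 479 to 508 (1 called higher, median 0.06). Background on day 13 was 16.5%.

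In rapamycin mice, some markers of glia and vessels were lower. Against control, 2 of 5 astrocyte, 2 of 5 microglia, 2 of 5 oligodendrocyte and 2 of 4 endothelial markers were called lower (background 1.41%), and the astrocyte, microglia and endothelial sums, at 834 to 886, 124 to 142 and 103 to 112 CPM, lay below the controls (1050 to 1090, 169 to 203 and 131 to 165). Some untreated Tsc1-Cre+ groups also lay below all controls, without a called marker. These were the astrocyte sum on day 6 (881 to 919) and the microglia sum on day 6 (150 to 160) and day 8 (151 to 166). The endothelial sums on days 6 and 8 overlapped the controls. Against day 13, 3 of 4 endothelial and 3 of 5 astrocyte markers were called lower in rapamycin mice (background 21.1%). Called higher were 1 astrocyte marker and 3 of 5 dentate granule cell markers. Of the other lists, 2 of 4 CA1, 2 of 6 pan-neuronal, 1 of 8 inhibitory neuron, 1 of 5 microglia and 1 of 5 hippocampal identity markers were called lower. No marker of these lists was at 0, and their part in the day 13 and rapamycin results of the members, *Kcna5* and *Kcne1l* included, was not tested.

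Of 27 channel partners, fixed as a list of anchoring, clustering and regulatory proteins, none was called on day 4, 6 or 8 or in rapamycin against control. The background there was 0.68%, 1.32%, 3.99% and 1.41% of all genes tested. On day 13, 2 partners were called higher and 2 lower (background 8.4% and 8.06%). In rapamycin against day 13, 1 was called higher and 3 lower (background 9.94% and 11.2%). On day 13, *Vapa*, whose protein ties Kv2 clusters to the endoplasmic reticulum, rose by 0.56 ± 0.09 (adjusted p = 0.00309). The Kv1 clustering genes *Cntnap2* and *Cntn2* fell by 0.53 and 0.57 on the log2 scale (adjusted p = 0.00644 and 0.0462). In rapamycin against day 13, *Nedd4l*, a ubiquitin ligase of Kv7 channels, was 0.62 higher (adjusted p = 0.000973), and *Vapa* was lower (log2 fold change -0.59, adjusted p = 0.00244).

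Among the members called on day 13, the rapamycin and control groups overlapped for all but *Kcng3*, whose rapamycin mice lay above the controls. Over all 49 members, 2 lay wholly above and 2 wholly below the controls in rapamycin mice, a share not computed over all genes. None of the 9 members called on day 13 was called in rapamycin against control, where only 1.41% of all genes tested were called. Their log2 fold changes there ranged from -0.18 (*Kcnip3*) to 0.26 (*Kcng3*).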

How the data were processed

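Hippocampal RNA of 24 mice, 4 per group by their titles, was sequenced as stranded rRNA-depleted libraries. Per the labels, the authors trimmed reads with cutadapt 1.16.5, aligned them with STAR 2.7.2b to mm10 and counted them per gene with featureCounts 1.6.4, and they deposited raw read counts. The strand setting is not given in the sources used here. Names and coordinates came from GENCODE M21 (GRCm38), an earlier release than the one counted on, in which 55144 of 55385 identifiers were found.

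Each comparison used its own 8 mice, filtered with filterByExpr, normalized with TMM and tested by quasi-likelihood in edgeR 4.0.16 (R 4.3.3), with Benjamini-Hochberg adjustment over all genes tested. Calls required an adjusted p under 0.05 together with a log2 fold change beyond 0.5 in either direction. Fold changes in the text carry SEs from the same fit. The F test used all 24 mice. Levels are CPM scaled with TMM factors over the 24 mice. The tests were run on simulated data beforehand. Members called at least once, members the study names and the highest member per kilobase of each subfamily are described by name. Some members and partners are not reported here. The members and lists were chosen with earlier results of these data known. Labels do not say more of the animals than 1 library each, so p-values measure the spread between these mice.

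The alternatives were DESeq2 1.42.0, all 24 mice in one fit, DESeq2 size factors, other filters and fold thresholds, the replicate letter or library number series as a block, *Xist* or *Ttr* as a covariate and each mouse left out. GC correction, thinned counts and leaving out pairs of mice were added after the data were seen. Library totals ran from 28208561 to 126435936 counts, and counting error is large for members near 0.2 CPM.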

Additional observations from a re-analysis of the deposited data

Results flagged for a closer look

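In 15 of 270 groups of 4 mice (45 members in 6 groups), 1 mouse lay far from the 3 others by Dixon's test. These are 5.56% of the groups, and chance flags about 1 in 20. Of these, 3 were for *Kcne2*, in control B (8.61 CPM), day 8 mouse D (3.75) and rapamycin mouse C (2.79). On day 13 they were *Kcna2* (244) and *Kcnb2* (26.4), both low in mouse B, and *Kcnq1* in mouse B (3.05), *Kcne4* in mouse A (1.63) and *Kcnq5* in mouse C (168), all high. On day 6 mouse A was high for *Kcnc2* (130) and *Kcns2* (61.7), and mouse B was low for *Kcnd3* (101). The others were *Kcnab3* in day 4 mouse C (21.1), *Kcna4* in day 8 mouse D (110), *Kcng4* in day 8 mouse C (12.6), all high, and *Kcnq5* in rapamycin mouse D (94), low.

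The effect with rapamycin differed from the effect on day 13, by the edgeR test of rapamycin against day 13, in 12 members. The log2 difference was 0.56 for *Kcna3*, 0.65 for *Kcna5*, 0.69 for *Kcnc2*, 1.01 for *Kcng3*, 0.64 for *Kcnh8*, 0.81 for *Kcnip2*, 0.58 for *Kcnip4* and 0.82 for *Kcnq3*. It was -1.71 for *Kcne1l*, -1.43 for *Kcnip3*, -0.72 for *Kcnq1* and -0.59 for *Kcns1*.

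*Kcng3* lay above all controls on day 6, with a mean of 11.4 CPM, and below all controls on day 13, with a mean of 5.67 CPM; the difference between those days was not tested.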

How the results depend on the processing

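No called member reversed its direction under any alternative: of 513 refitted values of the 27 called pairs of member and comparison, 402 kept the call and 111 kept the direction without it, and 8 pairs kept it in every refit. Counts of called members within 1.5 times those reported are not repeated. With all 24 mice in one fit the count was 0 on day 4, 1 on day 8 and 1 in rapamycin against control. The GC correction gave 0 on day 4, thinned counts gave 1 in rapamycin against control, the *Ttr* covariate gave 1 on day 8, and no filter on low counts gave 1 on day 6. Without a fold threshold the counts were 6, 7 and 8 on days 4, 6 and 8 (12.2%, 14.3% and 16.3% of the members), beside 4.16% and 10.1% of all genes tested on days 4 and 6. The share over all genes without a fold threshold is not given for day 8. With a log2 fold change over 1 the members' counts were 0 on days 4 and 8, 1 on day 13, 1 in rapamycin against control and 3 in rapamycin against day 13, with no share over all genes given. These counts and those with mice left out describe only how the calls depend on the processing. Leaving out day 8 mice A and C gave 1, a member not called with them, and leaving out day 13 mice A and B gave 4 on day 13 and 6 in rapamycin against day 13. Leaving out single mice gave 1 to 2 on day 4, 0 to 2 on day 6, 0 to 3 on day 8, 5 to 13 on day 13, 1 to 2 in rapamycin against control, 7 to 17 in rapamycin against day 13 and 20 to 27 in the F test. The day 8 count was 0 without control A, B or D or day 8 mouse A and 1 without control C or day 8 mouse C; the day 13 count was 5 without control A; the count in rapamycin against day 13 was 7 without day 13 mouse A or rapamycin mouse B. Counts over all genes moved as well. Leaving out single mice gave 83 to 211 called genes on day 4, beside 172 with all mice, and 217 to 429 on day 6, beside 332. The cause of these shifts was not tested.

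The replicate letters did not pair the mice (correlation of same-letter deviations from -0.116 to 0.0768, with at most 3 of 8 mice of a comparison closest to their own letter). With the replicate block, 1 member (*Kcne4*) was called on day 6, and the F test passed 22.

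Members below about 1 CPM, such as *Kcne3*, *Kcne4* and *Kcnv2*, rest on few reads, and small differences were not detectable for them.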
